A study of Drosophila melanogaster with 6 samples.

Results

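The genes described here encode the cytochrome P450 enzymes of larval metabolism. They were chosen by name alone, as every gene whose FlyBase symbol is Cyp followed by digits, letters and digits, with Cyp18a1 and Cyp4g1 left out, which gave 78 of the 17562 genes in the count table. The Halloween P450 genes of ecdysone synthesis carry other symbols and are not among them. RNA-seq was performed on whole Drosophila melanogaster larvae at the wandering stage, in 3 libraries of the control strain w1118 and 3 libraries of cdk8K185 homozygotes, with 10 larvae pooled for each library. The question put to the P450 genes was which of them differ in transcript level when Cdk8, the kinase of a Mediator module, is mutated.

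The cdk8K185 allele is a null allele of Cdk8 whose deletion also removes part of the neighbouring gene I-2. The stock is known here from the methods of a paper on the same comparison, which names another record for its RNA-seq, and the labels of these libraries do not describe it. Per those methods, the mutant chromosome carries FRT80B and was kept over the balancer TM6B Tb, by which homozygous larvae were told from heterozygotes, and the stock had been outcrossed to w1118. Maternal CDK8 carries the homozygotes to the pupal stage. Flies were kept on cornmeal, molasses and yeast medium, and the sex of the larvae is not given in the sources used here. Differences of genetic background or developmental timing, the damage to I-2 and the loss of Cdk8 cannot be told apart in this design.

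A cytochrome P450 holds a haem group and uses electrons from a partner protein to insert an oxygen atom from molecular oxygen into its substrate. In insects these enzymes make and break hormones and lipids, and they oxidise plant toxins and insecticides, mostly in the midgut, the Malpighian tubules and the fat body. They are sorted by sequence into clans. The CYP3 clan holds families such as CYP6, CYP9 and CYP28, in which most insecticide-resistance genes lie. The CYP4 clan holds many fatty acid hydroxylases, the mitochondrial clan sits in mitochondria and draws on ferredoxin, and the CYP2 clan is small and best known for hormone and developmental enzymes.

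Library totals ran from 9208564 to 11724703 counts. The first principal component held 77.8% of the variance of the log2 CPM values and separated the genotypes. Cdk8 transcripts were at 10.1, 9.53 and 8.83 CPM (the count scaled by the TMM-adjusted library size) in w1118 and at 4.73, 6.46 and 7.22 CPM in cdk8K185, a log2 fold change (log2 FC, cdk8K185 over w1118) of -0.63 that passed the test (edgeR adjusted p = 0.0344) but lost the call in 5 of 6 fits that left out a single library. I-2 fell from 31.5 ± 3.83 to 5.38 ± 0.212 CPM (SD, n = 3; edgeR adjusted p = 4.55e-05). Why Cdk8 transcripts remained at this level in larvae said to be homozygous for a null allele was not tested. The labels give each genotype in triplicate and do not say whether the pools came from separate cultures, so p-values measure the spread between these samples, which may be technical. Among the P450 genes, w1118 replicate 1 stood apart, since it was the lowest w1118 library for 53 of the 67 tested P450 genes (79.1%), against 38.9% of all tested genes.

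The total P450 transcript level was nearly equal in the genotypes, while its makeup differed. Levels of different genes were compared as RPKM, that is CPM per kilobase of merged exons. The summed RPKM of the 78 genes was 1787, 2116 and 2108 in the w1118 libraries and 1976, 1962 and 2079 in the cdk8K185 libraries. The means were 2004 ± 188 and 2005 ± 63.7 RPKM (SD, n = 3), a ratio of 1.001, and the libraries of the genotypes overlapped. In w1118, 4 genes, namely Cyp9f2, Cyp6d5, Cyp6g1 and Cyp12a4, held 52.5% ± 2.53 of the sum (SD, n = 3, as for all shares below). In cdk8K185 the leading 4 were Cyp9b2, Cyp9f2, Cyp28a5 and Cyp309a1, with 42.0% ± 4.28 of the sum. The leading 8 genes held 72.8% ± 2.40 in w1118 and 55.8% ± 3.65 in cdk8K185, so the transcripts were spread over more genes in the mutant. Of the 10 genes with the highest level in each genotype, 7 were in common.

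**Figure D1:**
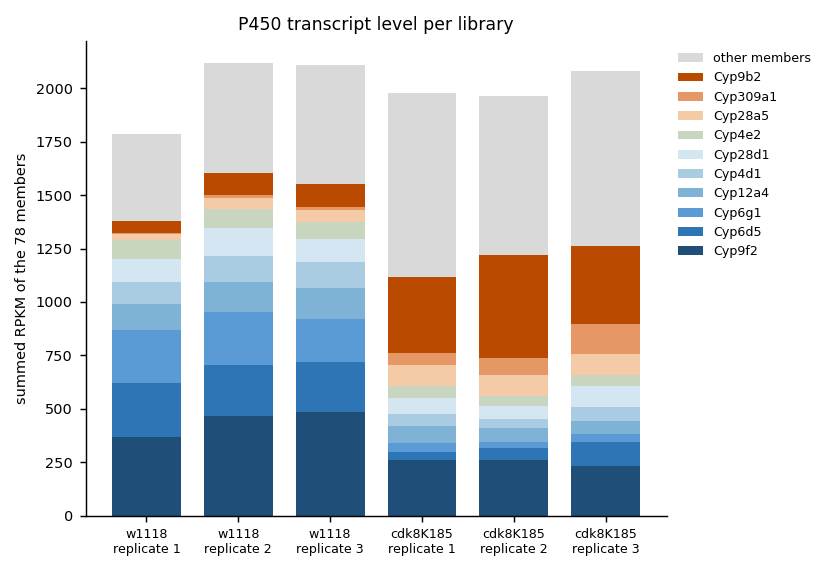
Summed RPKM of the 78 P450 genes in each library (bars, with the 10 genes of the highest mean level coloured and the other members in grey). All bars end between 1787 and 2116 RPKM, while the blue blocks of Cyp6g1, Cyp6d5 and Cyp9f2 are smaller and the orange blocks of Cyp9b2, Cyp309a1 and Cyp28a5 larger in the 3 cdk8K185 libraries.

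Read by clan, the CYP3 clan supplied most P450 transcripts in both genotypes, with 69.3% ± 0.312 of the summed RPKM in w1118 and 72.6% ± 2.93 in cdk8K185. The CYP4 clan held 18.4% ± 0.131 and 17.4% ± 2.92, the mitochondrial clan 11.01% ± 0.275 and 8.78% ± 1.33, and the CYP2 clan 1.35% ± 0.0942 and 1.19% ± 0.101. The shifts were larger between families of the CYP3 clan. The CYP6 family held 35.7%, 31.3% and 30.2% of the sum in the w1118 libraries and 25.4%, 23.1% and 23.4% in the cdk8K185 libraries. The CYP9 family held 25.1%, 28.3% and 29.8% in w1118 and 33.0%, 39.6% and 30.5% in cdk8K185. In neither family did the libraries of the genotypes overlap, and these shares are given as a description, with no test.

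Gene by gene, 28 P450 transcripts were higher and 12 were lower in cdk8K185 (edgeR quasi-likelihood test, with the Benjamini-Hochberg adjustment taken over all 10632 tested genes and a threshold of 0.05). These are 40 of the 67 P450 genes with enough counts to be tested, where 36.9% of all tested genes were called, 19.9% as higher and 17% as lower. Each log2 FC is given with its SE after the ± sign. A change of at least 2-fold was called for 25 higher and 7 lower P450 genes, next to 7.9% and 8.64% of all genes. For 50 of the 67, every library of the higher genotype lay above every library of the other, against 53.6% of all genes. The median log2 fold change was 0.51 over the tested P450 genes and 0.02 over all genes. It was 0.1004 over the 54 P450 genes with at least 10 counts in every library, of which 19 were higher and 15 lower. That filter takes out genes low in w1118 that reached the main test mostly through the mutant libraries. The excess of higher calls thus leans on such genes. Over the 67 tested genes the median size of the change was 1.08, against 0.38 over all genes. P450 transcripts also varied more between replicates, with a median coefficient of variation of 17.7% in w1118 and 18.2% in cdk8K185, against 13.1% and 10.97% over all genes. Without w1118 replicate 1, the counts were 28 higher and 13 lower. Of the 40 called genes, 32 were called in every fit that left out a single library and 8 were not. The RNA came from whole larvae, so fewer cells of a type and less RNA per cell cannot be told apart.

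By clan, 15 of 32 tested CYP3 genes were higher and 6 lower, with a median log2 fold change of 0.83. Over all tested genes, 19.9% were higher and 17% lower, with a median of 0.02. In the CYP4 clan, 9 of 26 were higher and 5 lower, with a median of 0.43. Without w1118 replicate 2 or cdk8K185 replicate 1, 6 CYP4 genes were higher and 6 lower. The CYP4 median was 0.12 without w1118 replicate 1, 0.11 without cdk8K185 replicate 1 and 0.14 with DESeq2. When only genes with at least 10 counts in every library were tested, 5 of 19 CYP4 genes were higher and 7 lower, with a median of -0.061. Of 27 CYP3 genes, 11 were then higher and 7 lower, with a median of 0.32. That filter takes out genes nearly silent in w1118, which favoured higher calls in the main test. In the mitochondrial clan 3 of 7 were higher and 1 lower, and in the CYP2 clan 1 of 2 was higher.

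**Figure D2:**
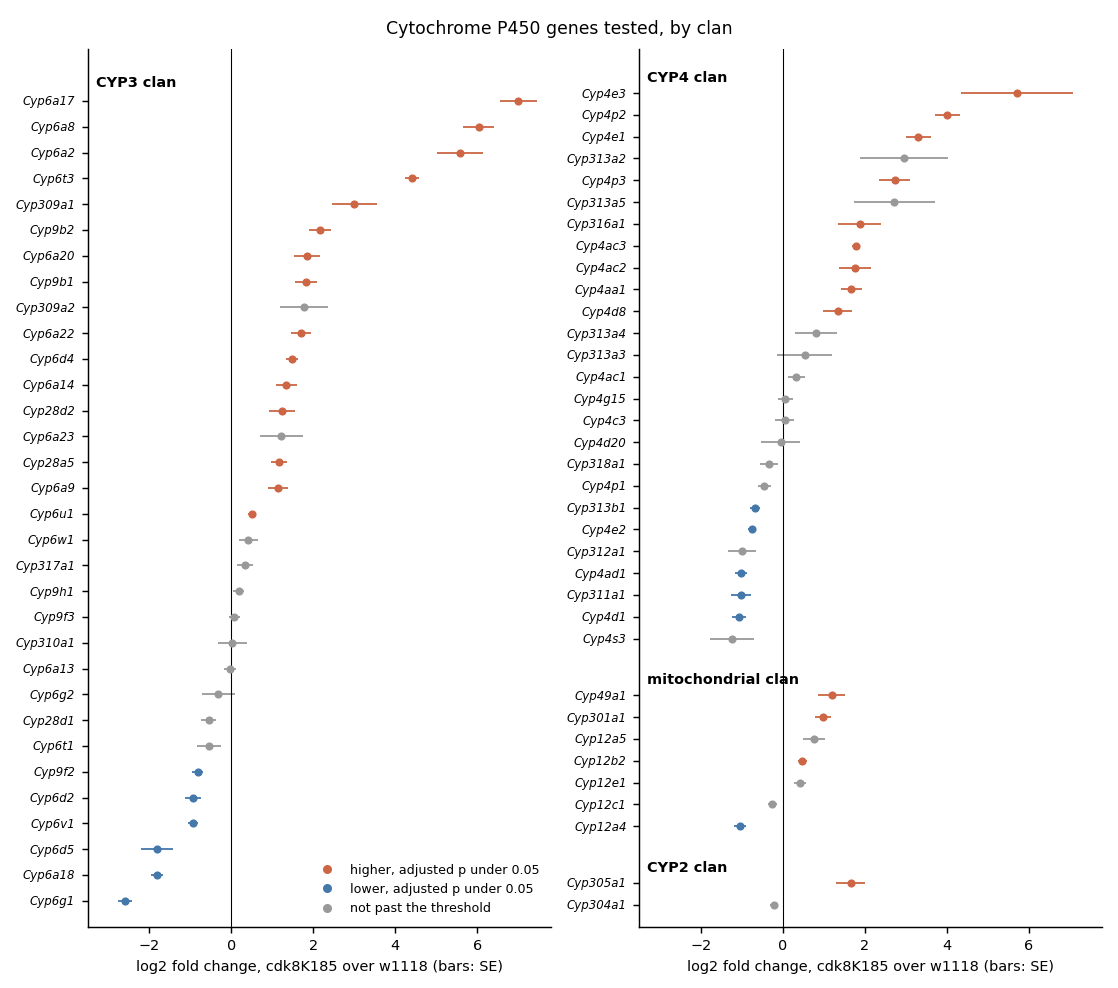
Log2 fold change of cdk8K185 over w1118 for each of the 67 tested P450 genes, sorted within its clan (points, with the SE as bars; orange higher and blue lower at an edgeR adjusted p under 0.05, grey not past the threshold). The CYP3 clan spans from -2.59 for Cyp6g1 to 7.0 for Cyp6a17, and the CYP4 clan from -1.23 for Cyp4s3 to 5.72 for Cyp4e3.

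The genes with the largest rises in the CYP3 clan were nearly silent in w1118, and most belong to the Cyp6a subfamily. Cyp6a17 (FBgn0015714, 2R:14873953-14875739), known for a part in temperature preference, had 1, 12 and 8 counts in the w1118 libraries and 1298, 997 and 783 counts in the cdk8K185 libraries. Its mean went up from 0.716 ± 0.563 CPM to 91.5 ± 21.8 CPM (SD, n = 3 libraries; log2 FC 7.0 ± 0.45, edgeR adjusted p = 0.000138), which moved it from rank 60 to rank 11 among the P450 genes by RPKM. Cyp6a8 (FBgn0013772, 2R:14887171-14889010), a caffeine-inducible gene that is high in insecticide-resistant strains, had 2, 4 and 8 counts in w1118 and 365, 249 and 455 in cdk8K185 (log2 FC 6.03 ± 0.38, edgeR adjusted p = 9.74e-05). Cyp6a2 (FBgn0000473, 2R:6779749-6781491), whose enzyme metabolises DDT, had 1, 10 and 6 counts in w1118 and 489, 202 and 255 in cdk8K185 (log2 FC 5.58 ± 0.56, edgeR adjusted p = 0.000705). All 3 genes were close to the limit of detection in w1118, so the size of each fold is uncertain, and leaving out w1118 replicate 2, 3 or 2, the highest for each gene, raised the log2 fold changes to 7.61, 6.72 and 6.24. Leaving out w1118 replicate 1, the lowest for each, lowered them to 6.45, 5.64 and 5.05. Each had at least 202 counts in every mutant library.

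The rest of the Cyp6a subfamily moved less. Cyp6a20 (FBgn0033980), which affects male aggression, was at 0.851, 1.09 and 0.754 CPM in w1118 and at 3.13, 3.62 and 3.10 CPM in cdk8K185 (log2 FC 1.85 ± 0.31, edgeR adjusted p = 0.00407). Cyp6a22, Cyp6a14 and Cyp6a9 were also higher, by log2 fold changes of 1.69, 1.34 and 1.14. Cyp6a23 was at 11.4, 31.2 and 56.1 CPM in w1118 and at 85.5, 90.2 and 53.0 CPM in cdk8K185. The genotypes overlapped and the gene was not called (log2 fold change 1.22, edgeR adjusted p = 0.114). It was called with DESeq2 (adjusted p = 0.0346) and without w1118 replicate 3 (edgeR adjusted p = 0.0323). Cyp6a13 stayed at 52.1 ± 6.84 and 50.9 ± 6.59 CPM. Cyp6a18 (FBgn0039519, 3R:27478675-27482904), which lies on another chromosome arm, was the exception in direction, at 27.9, 33.8 and 31.5 CPM in w1118 and at 10.4, 8.42 and 7.65 CPM in cdk8K185 (log2 FC -1.82 ± 0.15, edgeR adjusted p = 0.000213). In all, 7 of 10 tested Cyp6a genes were higher and 1 was lower, where 19.9% of all tested genes were higher and 17% lower. With at least 10 counts required in every library, 3 of 6 were higher and 1 was lower. The genes left out then had passed the main filter through the mutant libraries alone, which favours higher calls. The summed level of the subfamily went from 99.6 ± 29.0 RPKM in w1118 to 266 ± 40.8 RPKM in cdk8K185, with no overlap between the libraries.

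Other CYP3 genes rose from low or moderate levels. Cyp6t3 (FBgn0033697, 2R:12190682-12192436), which acts in ecdysone synthesis in the prothoracic gland, was at 1.51, 1.29 and 1.18 CPM in w1118 and at 26.5, 26.2 and 33.2 CPM in cdk8K185. Its 21.3-fold rise was among the most even between libraries (log2 FC 4.41 ± 0.17, edgeR adjusted p = 2.03e-05). Cyp309a1 (FBgn0031432, 2L:2562483-2564830) was at 8.98, 28.9 and 31.3 CPM in w1118 and at 112, 162 and 278 CPM in cdk8K185 (log2 FC 3.00 ± 0.54, edgeR adjusted p = 0.00686). It went from rank 30 to rank 4 among the P450 genes by RPKM. Cyp9b2 (FBgn0015039, 2R:7130277-7132139) was at 93.5, 170 and 183 CPM in w1118 and at 589, 802 and 605 CPM in cdk8K185 (log2 FC 2.16 ± 0.28, edgeR adjusted p = 0.0015). It became the most abundant P450 transcript of the mutant, with 20.0% ± 3.97 of the summed RPKM against 4.39% ± 1.10 in w1118. Its neighbour Cyp9b1 was also higher, at 3.497, 6.946 and 5.60 CPM against 17.6, 15.6 and 23.5 CPM (log2 FC 1.82 ± 0.27, edgeR adjusted p = 0.00248).

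The CYP28 genes did not move together. Cyp28a5 (FBgn0028940, 2L:13977302-13979569) was at 53.7, 89.5 and 93.3 CPM in w1118 and at 179, 174 and 177 CPM in cdk8K185, with almost no spread in the mutant (log2 FC 1.16 ± 0.20, edgeR adjusted p = 0.00491). Cyp28d1 and Cyp28d2 are neighbours linked to nicotine resistance. Cyp28d2, the weakly expressed gene of the pair, was at 1.51, 3.28 and 2.15 CPM in w1118 and at 6.08, 5.68 and 4.73 CPM in cdk8K185 (log2 FC 1.25 ± 0.32, edgeR adjusted p = 0.0199), and its call was lost without cdk8K185 replicate 1 or 2 (edgeR adjusted p = 0.0728 and 0.0508). Cyp28d1, the abundant gene of the pair, was at 177, 209 and 171 CPM in w1118 and at 123, 98.2 and 159 CPM in cdk8K185. Its log2 fold change of -0.55 did not pass the test (SE 0.18, edgeR adjusted p = 0.0511), but did pass with DESeq2 (adjusted p = 0.0151) and without cdk8K185 replicate 3 (edgeR adjusted p = 0.0175). Cyp28c1 had 1, 0 and 0 counts in w1118 and 11, 6 and 8 in cdk8K185, too few to be tested.

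The genes that fell in the CYP3 clan included the most abundant P450 transcripts of w1118. Cyp6g1 (FBgn0025454, 2R:12185667-12188431), best known for DDT and neonicotinoid resistance when it is overexpressed, was at 512, 515 and 419 CPM in w1118 and at 93.4, 63.1 and 83.0 CPM in cdk8K185. It fell 6.04-fold (log2 FC -2.59 ± 0.18, edgeR adjusted p = 0.000103), from 11.7% ± 2.12 to 1.92% ± 0.364 of the summed RPKM. Cyp6d5 (FBgn0038194, 3R:14029228-14031483) was at 413, 385 and 379 CPM in w1118 and at 59.8, 93.1 and 184 CPM in cdk8K185 (log2 FC -1.80 ± 0.39, edgeR adjusted p = 0.0131). The mutant libraries were far apart from each other, yet all lay below the lowest w1118 library. Cyp9f2 (FBgn0038037, 3R:12403340-12406028), the most abundant P450 transcript of w1118, was at 647, 822 and 856 CPM there and at 456, 455 and 407 CPM in cdk8K185 (log2 FC -0.82 ± 0.14, edgeR adjusted p = 0.004). It still ranked second in the mutant. Cyp6d2 and Cyp6v1 were lower as well, both with a log2 fold change of -0.93. However, 51.0% of the exon bases of Cyp6d2 are shared with nsr on the other strand, which itself went from 5.82 ± 3.29 to 0.182 ± 0.159 CPM, and reads of the 2 genes may not have been kept apart. In the Cyp6d subfamily the third gene, Cyp6d4, went the other way, at 26.3, 28.3 and 33.7 CPM in w1118 against 96.4, 72.8 and 76.1 CPM in cdk8K185 (log2 FC 1.48 ± 0.15, edgeR adjusted p = 0.000475).

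Of the CYP3 genes with a known role, several did not pass the test. Cyp6g2, whose overexpression can also give insecticide resistance, was at 3.69, 3.08 and 3.45 CPM in w1118 and at 3.55, 1.27 and 3.35 CPM in cdk8K185 (edgeR adjusted p = 0.56). Cyp6w1, which is raised in a DDT-resistant strain, was at 10.5 ± 2.52 and 14.1 ± 2.94 CPM (edgeR adjusted p = 0.186). Cyp310a1, a Wingless-responsive gene of the wing disc, was at 14.0 ± 1.19 and 14.3 ± 6.61 CPM (edgeR adjusted p = 0.955), with the lowest and the highest of its 6 values, 7.10 and 20.1 CPM, both in the mutant. These spreads leave room for differences that 3 libraries per genotype cannot show.

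In the CYP4 clan the largest fitted change rested on a single library. Cyp4e3 (FBgn0015035, 2L:9747839-9750071), which acts in the Malpighian tubule in tolerance to permethrin, had 11, 25 and 20 counts in w1118 and 195, 266 and 2975 counts in cdk8K185. Replicate 3 of the mutant was 9.82 times the next library. The fit gave a log2 fold change of 5.72 (SE 1.36, edgeR adjusted p = 0.019), and without that library the log2 fold change was 3.51 (edgeR adjusted p = 0.00103). The call was lost with limma-voom (adjusted p = 0.154) and without each of the w1118 libraries in turn (edgeR adjusted p = 0.0511 to 0.0756). All mutant libraries were above all w1118 libraries. This 1 value also lifted the summed CYP4-clan level of mutant replicate 3 to 420 RPKM, of which Cyp4e3 made up 142 RPKM, next to 348 and 282 RPKM in the other mutant libraries and 329, 386 and 389 RPKM in w1118.

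Several other CYP4-clan rises were more even between libraries. Cyp4p2 (FBgn0033395) was at 0.378, 0.298 and 0.538 CPM in w1118 and at 7.01, 6.46 and 6.62 CPM in cdk8K185 (log2 FC 4.02 ± 0.30, edgeR adjusted p = 0.000151). It had 4, 3 and 5 counts in w1118, close to the limit of detection, so the size of its fold is uncertain. Its neighbour Cyp4p3 (FBgn0033397) was at 1.70, 3.87 and 2.80 CPM against 26.9, 14.6 and 14.3 CPM (log2 FC 2.74 ± 0.38, edgeR adjusted p = 0.00205). Cyp4p1, which lies between them and was the most abundant of the 3 in w1118, was at 33.7 ± 2.32 and 24.6 ± 5.32 CPM and was not called (edgeR adjusted p = 0.062). Cyp4e1 (FBgn0015034) was at 0.473, 0.595 and 0.754 CPM in w1118 and at 6.67, 5.09 and 6.45 CPM in cdk8K185 (log2 FC 3.31 ± 0.30, edgeR adjusted p = 0.00033). With 5, 6 and 7 counts in w1118, the size of its fold is uncertain as well. Like Cyp4p2, it passed the main filter through the mutant libraries alone. It shares 82 exon bases with the maltase gene Mal-A1 on the other strand, which rose from 57.0 ± 20.4 to 261 ± 66.5 CPM, and the part of those reads in the Cyp4e1 counts was not tested. Cyp4ac3 (FBgn0031695) was among the most even, at 13.2, 13.8 and 14.0 CPM against 50.2, 49.5 and 42.7 CPM (log2 FC 1.79 ± 0.10, edgeR adjusted p = 6.04e-05).

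The other called CYP4-clan rises had lower counts or weaker support. Cyp4ac2, the neighbour of Cyp4ac3, was at 0.873 ± 0.312 and 2.98 ± 0.585 CPM (log2 FC 1.76 ± 0.39, edgeR adjusted p = 0.0115; 0.0513 without cdk8K185 replicate 1). Cyp316a1 was at 1.37 ± 0.894 and 5.02 ± 1.41 CPM (log2 FC 1.87 ± 0.51, edgeR adjusted p = 0.0266), and lost its call without w1118 replicate 2 or without cdk8K185 replicate 1 or 2 (edgeR adjusted p = 0.0612, 0.108 and 0.0552). Cyp4d8 lost its call without the same libraries (edgeR adjusted p = 0.0626, 0.0856 and 0.0656; 0.0272 with all). Cyp4aa1 kept its call in all 6 such fits, with a log2 fold change of 1.68.

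On the lower side of the CYP4 clan, both abundant and less abundant genes were called. Cyp4d1 (FBgn0005670, X:2159145-2162180) was at 240, 280 and 282 CPM in w1118 and at 132, 97.9 and 151 CPM in cdk8K185 (log2 FC -1.08 ± 0.17, edgeR adjusted p = 0.00294). Cyp4e2, the other abundant gene of the clan, was at 163, 171 and 157 CPM against 101, 92.1 and 98.8 CPM (log2 FC -0.75 ± 0.09, edgeR adjusted p = 0.000896). Cyp4ad1 was at 37.6, 41.3 and 49.9 CPM against 25.1, 19.6 and 19.0 CPM (log2 FC -1.01 ± 0.15, edgeR adjusted p = 0.0025). Cyp311a1 (FBgn0030367), which acts in lipid metabolism of the anterior midgut, was at 17.0, 20.3 and 25.2 CPM against 11.8, 11.9 and 7.14 CPM (log2 FC -1.02 ± 0.23, edgeR adjusted p = 0.0143). Cyp313b1 was lower by a log2 fold change of -0.68, while none of the 4 tested Cyp313a genes was called. Cyp313a2 and Cyp313a5 had 0, 0 and 6 and 0, 0 and 5 counts in w1118 and at least 11 counts in each mutant library (edgeR adjusted p = 0.066 and 0.0662). Both were called with limma-voom (adjusted p = 0.0288 and 0.0203), with library totals as scaling (edgeR adjusted p = 0.0343 and 0.0352) and without w1118 replicate 3 (edgeR adjusted p = 0.0163 and 0.0111).

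The call of Cyp4s3 depended on the test and on a single library. The gene was at 46.9, 51.3 and 57.8 CPM in w1118 and at 43.0, 14.2 and 8.94 CPM in cdk8K185, where replicate 1 was 3.03 times the next library. With all libraries it was not called by edgeR (log2 FC -1.23 ± 0.54, edgeR adjusted p = 0.115) but was called by DESeq2 and limma-voom (adjusted p = 0.0322 and 0.0427), and edgeR called it without that replicate (log2 fold change -2.18, edgeR adjusted p = 0.00301). Cyp4g15, a P450 gene of the nervous system, was at 5.01, 7.34 and 6.68 CPM in w1118 and at 6.42, 6.36 and 7.05 CPM in cdk8K185 (edgeR adjusted p = 0.818).

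In the mitochondrial clan, the most abundant gene fell and weaker ones rose. Cyp12a4 (FBgn0038681, 3R:19135158-19137136), a lufenuron-resistance gene, was at 206, 239 and 243 CPM in w1118 and at 131, 105 and 98.1 CPM in cdk8K185 (log2 FC -1.04 ± 0.14, edgeR adjusted p = 0.00144). Its neighbour Cyp12a5 was at 29.0 ± 9.42 and 49.2 ± 10.5 CPM, with no overlap between the genotypes, and was not called by edgeR (adjusted p = 0.0664), though it was with DESeq2 (adjusted p = 0.0344) and with library totals (edgeR adjusted p = 0.0133). Cyp301a1 (FBgn0033753), which acts in forming the adult cuticle, was at 3.97, 3.27 and 3.23 CPM in w1118 and at 7.86, 6.56 and 6.36 CPM in cdk8K185 (log2 FC 0.98 ± 0.19, edgeR adjusted p = 0.00705). Cyp49a1 was at 1.13, 2.38 and 2.48 CPM in w1118 and at 4.31, 4.60 and 4.81 CPM in cdk8K185 (log2 FC 1.20 ± 0.34, edgeR adjusted p = 0.0292). Its call was lost without each of the mutant libraries in turn (edgeR adjusted p = 0.0669 to 0.0776). Cyp12b2 rose by a log2 fold change of 0.48 and lost its call without cdk8K185 replicate 1 or 2 (edgeR adjusted p = 0.0551 and 0.0527).

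The CYP2 clan was the smallest. Cyp304a1, its main transcript, was at 45.0 ± 2.98 and 38.6 ± 3.39 CPM and was not called (edgeR adjusted p = 0.126), although its libraries did not overlap. Cyp305a1 was at 0.756, 0.595 and 0.754 CPM in w1118 and at 2.62, 1.86 and 2.23 CPM in cdk8K185 (log2 FC 1.66 ± 0.35, edgeR adjusted p = 0.0102; 0.0603 without cdk8K185 replicate 1). Cyp303a1, which is needed for sensory bristles, had 6, 12 and 6 counts in w1118 and 6, 4 and 4 in cdk8K185 and was not tested. It shares 33.0% of its exon bases with heix on the other strand, so its counts may be incomplete.

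Of the other tested P450 genes, Cyp6u1 of the CYP3 clan was higher, at 26.2, 27.6 and 29.0 CPM in w1118 and at 42.7, 35.4 and 39.5 CPM in cdk8K185 (log2 FC 0.51 ± 0.10, edgeR adjusted p = 0.00771). It shares 80 exon bases with Ufsp1 on the same strand, which was at 3.47 ± 0.349 and 3.02 ± 0.355 CPM. Cyp309a2, the weakly expressed neighbour of Cyp309a1, was at 0.473, 1.29 and 0.538 CPM against 1.18, 2.84 and 3.95 CPM and missed the threshold (log2 FC 1.77 ± 0.60, edgeR adjusted p = 0.0525), but passed without w1118 replicate 2 or cdk8K185 replicate 1 (edgeR adjusted p = 0.0389 and 0.0365) and with DESeq2 (adjusted p = 0.0429). Cyp312a1 was at 11.8, 9.23 and 16.7 CPM against 7.18, 8.12 and 3.70 CPM and also missed it (log2 FC -0.99 ± 0.33, edgeR adjusted p = 0.0553), passing with DESeq2 and limma-voom (adjusted p = 0.0269 and 0.0492), with at least 10 counts in every library (edgeR adjusted p = 0.0403) and without w1118 replicate 2 (edgeR adjusted p = 0.0437). Cyp12e1 was at 52.8 ± 7.89 and 70.5 ± 9.77 CPM (edgeR adjusted p = 0.0605). The last 10, namely Cyp6t1, Cyp9f3, Cyp9h1, Cyp4ac1, Cyp4c3, Cyp4d20, Cyp313a3, Cyp313a4, Cyp318a1 and Cyp12c1, had log2 fold changes between -0.55 and 0.81 and edgeR adjusted p-values between 0.118 and 0.944.

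Besides Cyp303a1 and Cyp28c1, 9 other P450 genes had too few counts for the test. Cyp4d2, Cyp4d14 and Cyp9c1 had 0 counts in all 6 libraries. They share 98.7%, 96.2% and 98.2% of their exon bases with antisense RNA genes, and since reads of shared bases may not have been counted, the 0 counts set no limit on their level. Cyp6a16 had 0, 1 and 2 counts in w1118 and 19, 13 and 7 in cdk8K185. Cyp6a19, Cyp4ae1, Cyp4d21, Cyp308a1 and Cyp313a1 had at most 7 counts in any library. Cyp4ae1 shares 88.25% of its exon bases with an antisense RNA gene and Cyp6a19 shares 20.75% with Cyp6a9, so their low counts set no firm limit either. Elsewhere a count of 0 allows up to 3 counts, worth 0.253 to 0.323 CPM in a single library, which covers counting error only.

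Many of the P450 genes lie in tandem groups, and the genes of a group moved together in some and apart in others. With a gap of at most 20 kb between neighbouring P450 genes, 43 of the 78 fell into 15 groups and 35 lay alone. The largest group, at 2R:14871366-14903095, holds 8 genes in the order Cyp6a22, Cyp6a17, Cyp6a23, Cyp6a19, Cyp6a9, Cyp6a20, Cyp6a8 and Cyp317a1. Here 5 of 7 tested genes were higher and none was lower, where 19.9% of all tested genes were higher and 17% lower. Of the higher genes, Cyp6a17, Cyp6a8 and Cyp6a20 had passed the main filter through the mutant libraries, which favours higher calls. They drop out when at least 10 counts are required in every library. The log2 fold changes of the 7 tested genes were far apart, from 0.35 for Cyp317a1 and 1.14 for Cyp6a9 to 7.0 for Cyp6a17. In the group at 2R:12185667-12192436, Cyp6g1 was lower, Cyp6g2 was not called and Cyp6t3 was higher, with log2 fold changes of -2.59, -0.31 and 4.41. In the group at 2R:8439395-8449745, Cyp4ad1 and Cyp4e2 were lower and Cyp4e1 was higher. These were the 2 groups with calls in both directions. In contrast, Cyp9b1 and Cyp9b2 were both higher, by 1.82 and 2.16, as were Cyp316a1 and Cyp4d8, by 1.87 and 1.34. Of the 24 pairs of adjacent tested genes, 8 had both genes called, 7 of them in the same direction. Several of the pairs that agreed, such as Cyp6a22 with Cyp6a17 and Cyp6a20 with Cyp6a8, hold a gene that passed the main filter through the mutant libraries. That favours pairs in which both are higher. Over all 67 tested P450 genes, 40 were called, 28 as higher and 12 as lower. Whether neighbours agree more than other pairs of P450 genes was not tested.

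**Figure D3:**
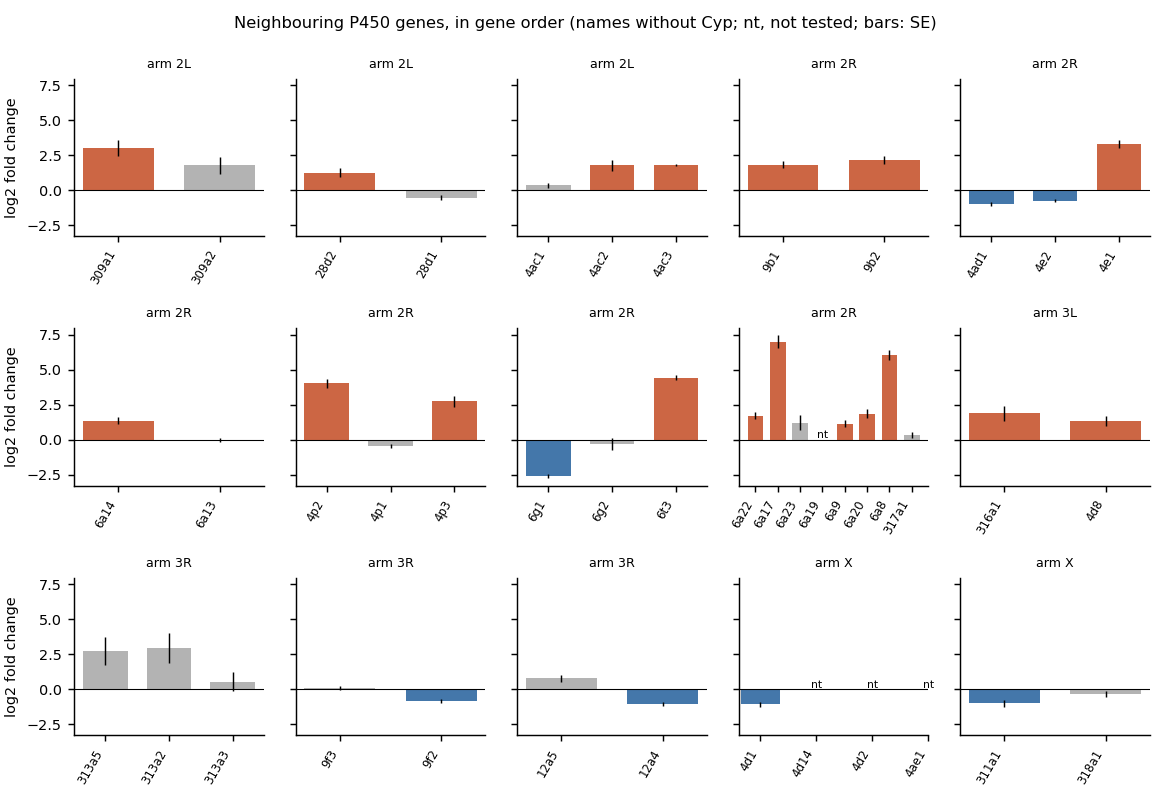
Log2 fold change of cdk8K185 over w1118 (bars, with the SE) for the genes of the 15 tandem groups, in gene order (orange higher, blue lower, grey not past the threshold, nt not tested). Adjacent genes can differ widely, as do Cyp6g1 at -2.59 and Cyp6t3 at 4.41, or Cyp4p1 at -0.45 between Cyp4p2 at 4.02 and Cyp4p3 at 2.74.

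The counts of calls by chromosome arm are given as a description. On 2R, 18 of 29 tested P450 genes were higher and 4 lower, on 2L 6 of 10 were higher and none lower, and on 3L 3 of 6 were higher and none lower. On 3R, 1 of 15 was higher and 5 were lower, and on the X 3 of 7 were lower and none was higher. Over all tested genes the share of higher genes was 22.1% on 2R, 18.9% on 2L, 20.5% on 3L, 18.6% on 3R and 20.2% on the X, and that of lower genes was 16.8%, 16.0%, 18.3%, 17.3% and 16.2% in the same order. Tandem copies share descent and sometimes sequence, so the genes of an arm are not independent. Of the 78 genes, 21 share exon bases with another gene, and 29 of the 40 called genes share none, 20 of them higher and 9 lower.

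A list of 6 genes set down as electron donors of P450 enzymes was measured beside them. Of these, 4 were higher in cdk8K185 and none was lower, where 19.9% of all tested genes were higher and 17% lower. Cpr, the reductase that serves the P450 enzymes of the endoplasmic reticulum, was at 130, 145 and 137 CPM in w1118 and at 304.5, 279.9 and 291.9 CPM in cdk8K185, a rise of 2.13-fold (log2 FC 1.09 ± 0.10, edgeR adjusted p = 0.000284). Cyt-b5, an alternative electron donor, was at 109, 125 and 151 CPM against 201, 216 and 209 CPM (log2 FC 0.70 ± 0.13, edgeR adjusted p = 0.00602). Cyt-b5-r was at 72.2, 97.5 and 100.2 CPM against 217, 162 and 408 CPM (log2 FC 1.54 ± 0.35, edgeR adjusted p = 0.0155; 0.0533 without w1118 replicate 1). It is a cytochrome b5-related gene, and a part as an electron donor to P450 enzymes is not established here. On the mitochondrial side, the ferredoxin gene Fdx2 was higher, at 25.8 ± 2.67 and 44.4 ± 2.08 CPM (edgeR adjusted p = 0.00143). Fdx1 and the ferredoxin reductase gene dare were not called (edgeR adjusted p = 0.195 and 0.664). The 6 listed genes together went from 406 ± 45.6 to 832 ± 129 CPM, whereas the summed CPM of the P450 genes was 3718 ± 343 and 3660 ± 117. Of the sums of the listed genes, Cyt-b5-r made up 89.9 ± 15.4 CPM in w1118 and 262 ± 129 CPM in cdk8K185.

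Of the haem synthesis genes 33.3% were called and of the regulators of the xenobiotic response 16.7%, next to 36.9% of all tested genes. Of the 6 haem synthesis genes reported here, Coprox was higher, by a log2 fold change of 0.49 (edgeR adjusted p = 0.00927), and Pbgs was lower, by -0.69 (edgeR adjusted p = 0.00294). Alas, which encodes the enzyme of the committed step, was at 51.9 ± 1.66 and 57.3 ± 5.11 CPM (edgeR adjusted p = 0.26). With library totals as scaling, which moves all log2 fold changes up by a median of 0.22, 5 of these 6 genes were higher. Of the 6 regulators, Hr96, a nuclear receptor for xenobiotics and lipids, was higher, at 27.9 ± 1.76 and 43.3 ± 4.66 CPM (log2 FC 0.64 ± 0.11, edgeR adjusted p = 0.00414). The transcript of cnc, which encodes the counterpart of the stress factor Nrf2, was at 495 ± 48.4 and 497 ± 14.4 CPM, and that of its inhibitor Keap1 at 18.8 ± 4.50 and 13.3 ± 2.32 CPM (edgeR adjusted p = 0.972 and 0.0878). Transcripts of maf-S, tgo and ss were not called.

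**Figure D4:**
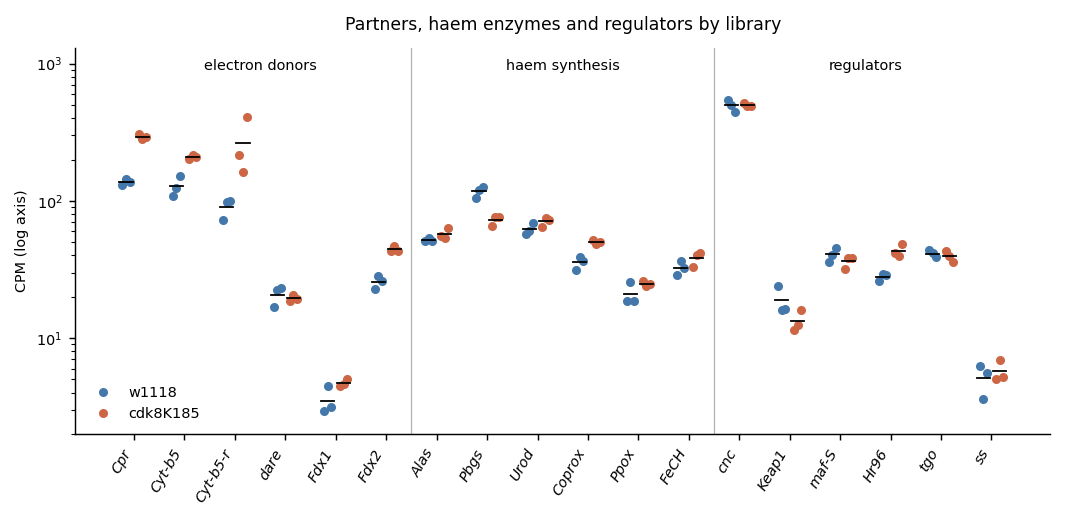
CPM in each library (points; bars mark the mean of the 3 libraries of a genotype; log axis) for the genes listed as electron donors, 6 haem synthesis genes and the xenobiotic regulators. Cpr is at 130 to 145 CPM in the w1118 libraries and at 279.9 to 304.5 CPM in the cdk8K185 libraries, whereas cnc overlaps between the genotypes.

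Some markers of the tissues in which P450 genes are transcribed also differed between the genotypes, and their part in the P450 differences was not tested. The paper reports altered transcription of metamorphosis genes in Cdk8 mutants. Whether the markers differed through tissue content or through developmental timing was not tested. The 6 fat body markers summed to 67860 to 73800 CPM in w1118 and to 19980 to 42670 CPM in cdk8K185, with Fbp1 and Lsp1gamma lower. Fbp1, at 35970 ± 8894 and 4189 ± 1853 CPM, made up most of this drop, and the other 4 markers were not called, Lsp1beta with a log2 fold change of 0.24. The call for Lsp1gamma was lost in 4 of 6 fits that left out a library. The 4 Malpighian tubule markers summed to 48.1 to 70.0 CPM in w1118 and to 186 to 303.4 CPM in cdk8K185. Most of this was the urate oxidase gene Uro, at 12.54 ± 7.65 and 232 ± 64.1 CPM, whereas ZnT35C of the same list was lower and Irk3 was not called. CapaR was higher, but lost its call in 5 of 6 fits that left out a library. The 7 midgut markers summed to 807 to 1642 CPM in w1118 and 1151 to 1472 CPM in cdk8K185, with Mal-A1, mex1 and lambdaTry higher. Amy-p went from 654 ± 265 to 343 ± 75.5 CPM and was not called by edgeR (log2 fold change -0.93, adjusted p = 0.0684), but was called lower with DESeq2 (adjusted p = 0.00741), with the replicate block (edgeR adjusted p = 0.028) and without w1118 replicate 1 (edgeR adjusted p = 0.00646). Jon99Ci, Jon25Bi and Npc1b were not called, with log2 fold changes of -0.34, -0.053 and 0.40. lambdaTry had 0 counts in all w1118 libraries, and all other markers were detected in both genotypes. Of the oenocyte markers 2 of 4 were lower and none higher, of the nervous system markers 1 of 5 was lower, of the muscle markers none of 3 was called and of the haemocyte markers 1 of 3 was higher. Over all tested genes, 36.9% were called, 19.9% as higher and 17% as lower. The called shares of the nervous system, muscle and haemocyte markers, at 20.0%, 0.0% and 33.3%, were below that of all genes.

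P450 symbols that carry a suffix were not chosen by the naming rule. Of these 4 genes, Cyp12d1-p, an insecticide-inducible gene of the mitochondrial clan, was lower, at 14.6, 22.7 and 18.6 CPM in w1118 and at 3.55, 2.35 and 4.13 CPM in cdk8K185 (log2 FC -2.47 ± 0.25, edgeR adjusted p = 0.000494). Its near-identical copy Cyp12d1-d had 0 counts in every library, so the value may stand for both copies. The pseudogenes Cyp6a15Psi and Cyp6t2Psi had at most 6 counts in any library.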

How the data were processed

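Whole larvae of w1118 and cdk8K185 were profiled by RNA-seq, with 3 libraries per genotype. The authors deposited 1 table of raw counts, whole numbers of reads per gene and library, not normalized. The submitters' processing notes name STAR, featureCounts, DESeq2 and the build dm6, with no versions. Strand use and the treatment of reads with several matches are not given in the sources used here, so counts of overlapping genes and of similar tandem copies are uncertain. The 85 identifiers that matched no gene of the annotation held 0.313% of the counts.

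Counts were tested with edgeR 4.0.16 in R 4.3.3 (filterByExpr at a minimum count of 10 and a minimum total of 15, TMM factors, robust glmQLFit and glmQLFTest, two-sided), with genotype as the sole term and Benjamini-Hochberg adjustment over all tested genes, 10632 in number. Each SE was computed as the absolute log2 FC over the root of its F statistic. Symbols, exon lengths and coordinates are from BDGP6.54, which keeps dm6 positions. Named were called genes with a log2 FC of at least 1 in size, a mean log2 CPM of 1 or more and libraries that did not overlap (up to 15 per direction), the 8 highest by RPKM and a list of genes with known roles. Other members named beside them were chosen after their values were seen. The members and lists were chosen with earlier results of these data known, and 1 gene of a list is not reported here. Alternatives were DESeq2 1.42.0, limma-voom (limma 3.58.1), RLE factors, library totals, 2 other filters (at least 1 count in some library, or 10 in every one), a replicate block, and each library left out. For the summed level they were added after seeing the data. The test was tested on simulated data. Chi-square statistics per degree of freedom between replicates were 17.9 to 43.8, so that no 2 libraries agreed within sampling noise.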

Additional observations from a re-analysis of the deposited data

How the results depend on the processing

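Higher P450 genes numbered 19 (at least 10 counts in every library) to 37 (library totals), and lower ones 12 to 15. At least 2-fold changes were called for 7 lower genes. The CYP2 clan kept 0 calls with at least 10 counts in every library, and 0 to 1 when a library was left out, and the mitochondrial clan 2 to 5, the lowest without cdk8K185 replicate 1 or 2. The ratio of summed RPKM was 1.166 with library totals, 0.974 with RLE factors and 0.949 to 1.03 without a library. Library totals shifted all log2 fold changes by a median of 0.22. This scaling called 11 electron donor, haem and regulator genes in place of 7. The share of called genes that were higher was 53.9% with TMM factors, and 74.2% with library totals (3452 higher and 1203 lower). Replicate numbers paired the libraries in part, with correlations of deviations of -0.195, 0.508 and 0.562 for numbers 1, 2 and 3. Between unlike numbers the correlations ran from -0.606 to 0.265. Whether libraries of a like replicate number shared a batch was not tested. Blocked by that number (replicate block), 28 P450 genes were higher and 12 lower, and Cyp4d8 lost its call (adjusted p = 0.086) while Cyp309a2 gained one (adjusted p = 0.0261). Over 32 named genes and 13 alternatives, 378 results kept direction and side of the threshold, 14 lost the call, 6 gained one and 10 turned direction. Those that turned were genes with a log2 fold change smaller in size than its SE. Cyp310a1, at 0.03, went to -0.0027 with DESeq2, -0.11 with limma-voom, -0.0155 with RLE factors, -0.0029 with at least 10 counts in every library, -0.0673 with the replicate block and -0.29 to 0.35 without a library. Without a library, Cyp4g15, at 0.06 with all, ran from -0.086 (w1118 replicate 1) to 0.18. Cyp6g2, at -0.31 with an SE of 0.40, ran from -0.56 to 0.024 (cdk8K185 replicate 2). The cause of these shifts was not tested. At a floor of 3 counts per library, the 7 P450 genes with at most 3 counts everywhere cannot be compared.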
